A study of Mus musculus with 6 samples.

Results

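The NADPH oxidase genes Nox1, Noxo1, Duox2, Duoxa2, Cybb, Cyba, Ncf1 and Ncf4 and the inducible nitric oxide synthase gene Nos2 were found by gene symbol, 9 of the 18477 genes of the expression table. All 9 passed the filter on low counts that left 14579 tested genes. NADPH oxidases are membrane enzymes that pass electrons from NADPH to oxygen and release superoxide or hydrogen peroxide, and inducible nitric oxide synthase makes nitric oxide from arginine. In the colon these oxidants come from different cells. The phagocyte oxidase has a membrane core of Cybb (gp91phox) and Cyba (p22phox) that is switched on by cytosolic proteins that include Ncf1 (p47phox) and Ncf4 (p40phox), and it kills engulfed microbes in neutrophils and macrophages. Colon epithelium carries Nox1 with its organiser Noxo1, and the dual oxidase Duox2 with its maturation factor Duoxa2, and releases oxidants towards the lumen. Nos2, the inducible nitric oxide synthase, is switched on by cytokines and bacterial products in macrophages and also in epithelium.

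Colon RNA came from male C57BL/6 mice given dextran sulfate sodium (DSS) in their drinking water, which damages the lining of the colon. The DSS group (n = 3) received PBS by gavage and the DSS+BV group (n = 3) received *B. vulgatus*, a common gut bacterium, by gavage before and during DSS. Both groups carried DSS, and no library from mice without DSS was analysed here, so the levels of an uninjured colon are not known. The comparison asks which transcripts differ in the injured colon when *B. vulgatus* is given. Mice were allocated to the groups at random in the study's methods. Each library was taken as 1 mouse, which the study's methods do not state. The study's methods describe young adult mice, and the labels give no position along the colon.

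Library totals lay between 15293276 and 17254343 expected counts. All 15 epithelium markers were detected in all 6 libraries. Their summed level, in CPM (counts scaled to library size with TMM factors), ranged from 16326 to 26414 over the DSS mice and from 27869 to 45935 over the DSS+BV mice. One feature of the series touches the phagocyte genes. DSS 1, DSS 3 and DSS+BV 1 held summed levels of 8 B cell markers between 164 and 271 CPM, against 6.69 to 13.8 CPM in DSS 2, DSS+BV 2 and DSS+BV 3, so a split that is not the treatment runs through these libraries. The summed level of 7 T cell markers ranged from 37.2 to 79.5 CPM over all libraries, and that of 6 genes that mark position along the colon from 14 to 344 CPM. In bulk tissue, fewer cells of a type and less RNA per cell cannot be told apart.

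Duox2 (chromosome 2, 122279246 to 122298740, minus strand) and Duoxa2 (chromosome 2, 122298900 to 122302885, plus strand) stand head to head in RefSeq on GRCm38.p6, the build that the submitters' processing notes name. The 159 bases between them are shown because both genes start towards this stretch and had similar patterns across the libraries. The capitals mark TATAAA, 30 bases before the start of Duoxa2.
Duox2 and Duoxa2 intergenic stretch, chr2:122298741-122298899, plus strand: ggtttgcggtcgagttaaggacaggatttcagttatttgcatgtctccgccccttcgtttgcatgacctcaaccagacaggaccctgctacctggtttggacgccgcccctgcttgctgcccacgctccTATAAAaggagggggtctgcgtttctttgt

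The 250 bases before the RefSeq start site of Cybb and of Ncf1, a core and a cytosolic part of the phagocyte oxidase, are shown because these genes had 1 shared order of libraries. Capitals mark matches to GAAA, any 2 bases and GAAA, or its reverse complement, the pattern that factors of the IRF family recognise. The start sites used for Cybb, Ncf1, Nox1 and Duox2 lie inside the outer bounds of those genes, that of Ncf1 by 3 bases.
Cybb, chrX:9469325-9469574, minus strand: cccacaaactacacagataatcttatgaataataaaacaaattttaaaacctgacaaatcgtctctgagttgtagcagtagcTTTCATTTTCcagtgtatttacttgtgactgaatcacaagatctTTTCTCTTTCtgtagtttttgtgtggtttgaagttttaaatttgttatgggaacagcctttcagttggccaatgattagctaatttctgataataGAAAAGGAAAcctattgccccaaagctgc
Ncf1, chr5:134229626-134229875, minus strand: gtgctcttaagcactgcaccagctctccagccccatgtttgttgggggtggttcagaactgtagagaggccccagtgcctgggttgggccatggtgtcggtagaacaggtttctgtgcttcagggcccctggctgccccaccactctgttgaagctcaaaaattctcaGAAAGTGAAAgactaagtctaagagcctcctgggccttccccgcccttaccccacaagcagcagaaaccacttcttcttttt

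Cybb held 3 matches and Ncf1 held 1, while the windows of Nox1, Noxo1, Duox2, Duoxa2 and Cyba held 0. Of all 32851 promoter windows of this length, 2.98% held at least 1 match. TATAAA or its reverse complement was in the window of Duoxa2 and in none of the other 6, against 12.4% of all windows. GAGGAA, the core that ETS factors read, was in the window of Nox1 and in none of the other 6, against 23.3%. TTCNNNGAA, which STAT factors read, was in the window of Ncf1 alone among the 7, where it shares bases with the IRF pattern, against 7.02%. GGG, any 5 bases and CC, a loose NF-kB pattern, was in the windows of Nox1, Noxo1, Cybb, Cyba and Ncf1, against 45.8%. All patterns were sought on both strands. A match describes letters and not a bound site, and no match says only that these letters are not in the window.

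Of the 9 genes, Nos2, Duoxa2 and Duox2 were lower in every DSS+BV library than in every DSS library, and the other 6 had groups that overlapped. No member passed in edgeR's quasi-likelihood test (adjusted p under 0.05 and absolute log2 fold change over 1), which passed 0.0892% of all tested genes as lower and 0% as higher. At an unadjusted p under 0.05 in edgeR, 3 members were lower and 0 higher, against 9.12% and 3.4% of all tested genes. With DESeq2, the tool of the study, the same 3 passed as lower and 0 as higher, against 1.57% and 0.257% of its genes, and at its unadjusted p under 0.05 these counts were again 3 and 0, against 8.43% and 4.12%. Groups that did not overlap in the lower direction were found for 11.3% of all tested genes. Of the 9 members, 8 had a log2 fold change under 0, as did 51.5% of all tested genes, and the median was -0.74 for the members and -0.01 for all tested genes.

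**Figure D1:**
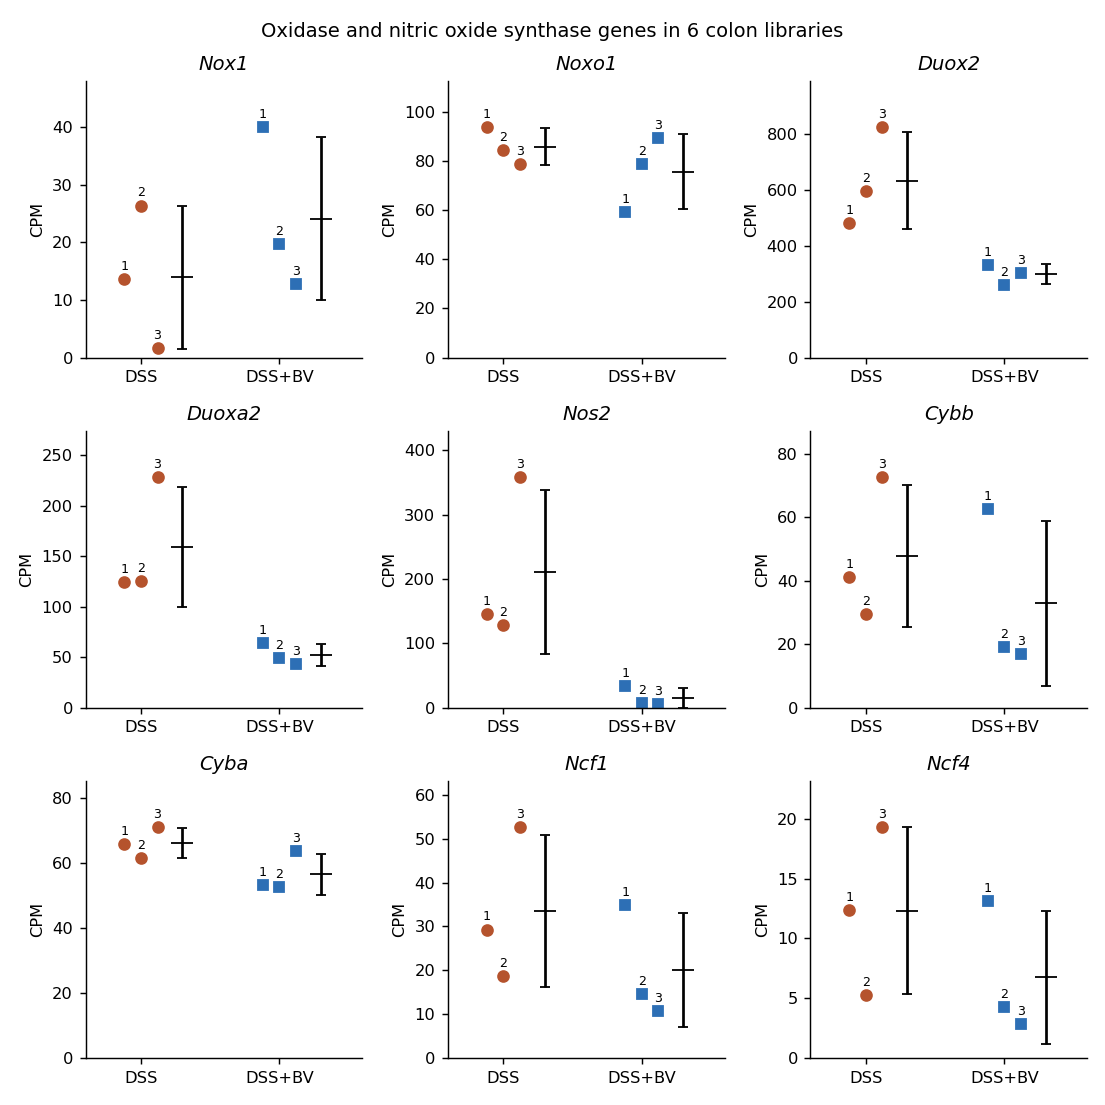
CPM of each of the 9 genes (vertical axis, from 0, with its own scale per gene) in the 3 DSS libraries (circles) and 3 DSS+BV libraries (squares), numbered by replicate, with the mean and SD of each group as the black bar. In Duox2, Duoxa2 and Nos2 all squares lie below all circles, and in Cybb, Ncf1 and Ncf4 the square of DSS+BV 1 lies among the circles.

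Nos2 (Entrez gene 18126, chromosome 11, 78920787 to 78960226) had the largest difference of the 9. DSS 1, 2 and 3 had 146, 128 and 358 CPM of it, and DSS+BV 1, 2 and 3 had 33.8, 8.03 and 5.75 CPM. The lowest DSS library was thus above the highest DSS+BV library, and DSS 3 and DSS+BV 1 were the highest of their groups. Mean levels were 211 ± 128 CPM with DSS alone and 15.9 ± 15.6 CPM with *B. vulgatus* (SD, n = 3 each), 13.3-fold apart. On the log2 scale edgeR put the change at -3.73 with a standard error of 0.805. The adjusted p was 0.22 in edgeR and 1.11e-05 in DESeq2. Only 0.103% of tested genes had a log2 fold change as low or lower. The value depended on single libraries: it was -4.93 without DSS+BV 1 and -3.11 without DSS 3. An exact permutation test of Nos2 gave a two-sided p of 0.1, which is the smallest that 3 mice against 3 allow.

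Duox2 and Duoxa2 were lower together. Duox2 (Entrez gene 214593), which releases hydrogen peroxide at the apical surface, had 482, 595 and 825 CPM among the DSS mice, numbered 1 to 3, against 331, 261 and 303 CPM among the DSS+BV mice. The DSS+BV libraries lay close to each other, and the spread was wider in the DSS group. Mean levels were 2.12-fold apart, the log2 fold change was -1.09 with a standard error of 0.231 (adjusted p = 0.218 in edgeR and 0.0033 in DESeq2), and the value was -0.85 without DSS 3 and -0.99 without DSS+BV 2, short of the fold threshold. Duoxa2 (Entrez gene 66811), without which Duox2 is not carried to the cell surface, had 124, 125 and 228 CPM among the DSS mice, against 64.4, 49.4 and 42.9 CPM among the DSS+BV mice. Here DSS 3 stood apart from the other DSS libraries, which were nearly equal. Mean levels were 3.04-fold apart, and the log2 fold change was -1.61 with a standard error of 0.293 (adjusted p = 0.173 in edgeR and 1.97e-04 in DESeq2), with a range from -1.78 to -1.26 when 1 library was left out.

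The ratio of Duox2 to Duoxa2 (CPM over CPM) had values of 3.88, 4.76 and 3.62 for the DSS mice, against 5.15, 5.28 and 7.05 for the DSS+BV mice. The maturation factor was thus lower relative to the oxidase in each DSS+BV library than in each DSS library. Duoxa2 shares exon bases with Duoxa1 on the other strand, and strand use in the counting is not given in the sources used here. Duoxa1 was at 0 to 0.24 CPM in the 6 libraries.

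**Figure D2:**
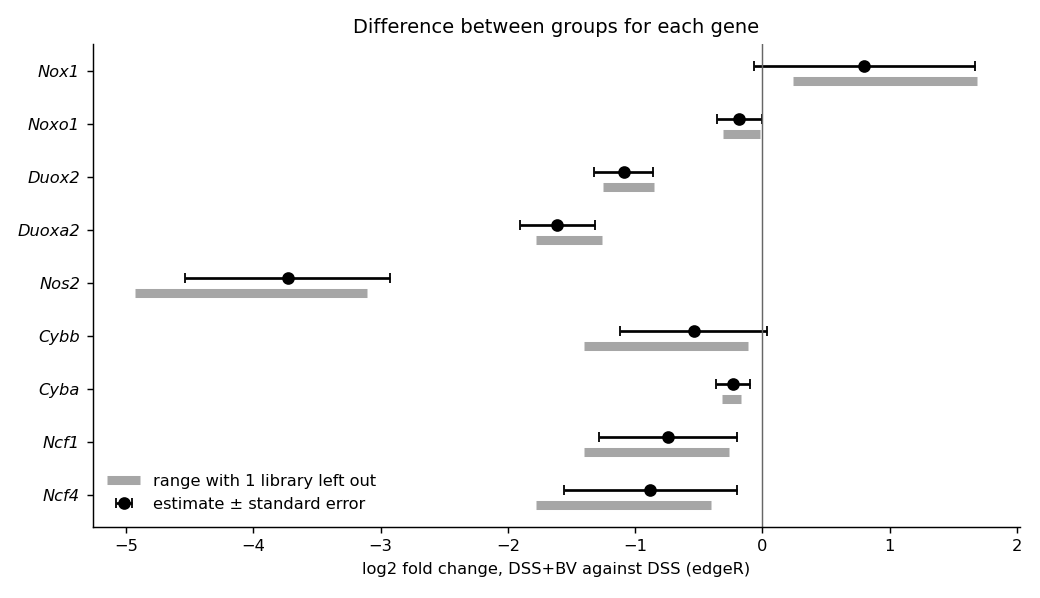
Log2 fold change of DSS+BV against DSS from edgeR (horizontal axis) for each gene, with the standard error as whiskers and the range of estimates with 1 library left out as a grey bar. Nos2, at -3.73, lies farthest from 0, and the bars of Nos2, Duoxa2 and Duox2 end at -3.11, -1.26 and -0.85.

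Nox1 and Noxo1, the other epithelial oxidase pair, did not share that pattern. Nox1 (Entrez gene 237038, chromosome X, 134086421 to 134137711), the catalytic subunit, had 13.7, 26.4 and 1.69 CPM among the DSS mice, against 40, 19.7 and 12.7 CPM among the DSS+BV mice. The 1.69 CPM of DSS 3 rested on 29 counts and was the lowest of all libraries by a wide margin, although DSS 3 was the highest for Duox2, Duoxa2 and Nos2. The log2 fold change was 0.80 (standard error 0.868, edgeR adjusted p = 0.728), and it ran from 0.24 without DSS+BV 1 to 1.69 without DSS 2. Nox1 shares exon bases with Cstf2 on the other strand, which was at 42.2 to 75.2 CPM, and reads from the shared bases cannot be told apart without strand.

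Noxo1 (Entrez gene 71893, chromosome 17, 24696234 to 24700530), which holds Nox1 active without the need for phosphorylation, had overlapping groups. It was measured at 93.8, 84.6 and 78.9 CPM among the DSS mice, against 59.1, 78.6 and 89.5 CPM among the DSS+BV mice. The log2 fold change was -0.18 (standard error 0.179, edgeR adjusted p = 0.701). Noxo1 overlaps Tbl3 on the other strand, at 15.7 to 32.9 CPM. The ratio of Noxo1 to Nox1 ran from 1.48 in DSS+BV 1 to 46.7 in DSS 3, the libraries with the highest and the lowest Nox1.

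The phagocyte oxidase parts Cybb, Ncf1 and Ncf4 followed 1 order of libraries, which was not the order of treatment. Cybb (Entrez gene 13058, chromosome X, 9435252 to 9487766), the catalytic subunit, had 41.3, 29.5 and 72.6 CPM among the DSS mice, against 62.7, 19 and 16.9 CPM among the DSS+BV mice. Ncf1 (Entrez gene 17969, chromosome 5, 134220053 to 134229628), which brings the cytosolic parts to the membrane, had 29.3, 18.7 and 52.6 CPM among the DSS mice, against 35, 14.5 and 10.7 CPM among the DSS+BV mice. Ncf4 (Entrez gene 17972, chromosome 15, 78244164 to 78262582), which binds phosphoinositides on the phagosome, had 12.4, 5.28 and 19.3 CPM among the DSS mice, against 13.1, 4.27 and 2.85 CPM among the DSS+BV mice. In all 3 the order from high to low was DSS 3, DSS+BV 1, DSS 1, DSS 2, DSS+BV 2 and DSS+BV 3, an order that 1.58% of tested genes had.

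The groups therefore overlapped in all 3 through DSS+BV 1. The log2 fold changes were -0.54 for Cybb (standard error 0.579), -0.74 for Ncf1 (standard error 0.543) and -0.88 for Ncf4 (standard error 0.682), with edgeR adjusted p-values of 0.725, 0.606 and 0.625. Without DSS+BV 1 they were -1.40, -1.40 and -1.78, and without DSS 3 they were -0.11, -0.26 and -0.40. None passed in either case. Cyba (Entrez gene 13057, chromosome 8, 122424771 to 122432940), the small subunit that both Cybb and Nox1 need, was nearly level, with 66, 61.6 and 71 CPM among the DSS mice, against 53.2, 52.7 and 63.8 CPM among the DSS+BV mice (log2 fold change -0.23, standard error 0.132, edgeR adjusted p = 0.523).

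The proportions of Ncf1 and Ncf4 to Cybb varied less than the levels of these genes. Cyba stayed between 52.7 and 71 CPM and did not keep its proportion to Cybb. The ratio of Ncf1 to Cybb lay between 0.559 and 0.759 in the 6 libraries, and that of Ncf4 to Cybb between 0.169 and 0.3, while Cybb itself ranged from 16.9 to 72.6 CPM. The ratio of Cybb to Lyz2, the lysozyme of macrophages and granulocytes, lay between 0.07 and 0.0918. Of 17 macrophage and monocyte markers, 16 had a log2 fold change below 0, with a median of -0.87, and 3 had groups that did not overlap in the lower direction. None passed in edgeR, where 3 were lower at an unadjusted p under 0.05, and 2 passed in DESeq2. Over all tested genes, 11.3% had no overlap in the lower direction and 9.12% were lower at that edgeR p. DESeq2 passed 1.57% of its genes as lower. The 3 without overlap were Cd163 (-1.98), Mrc1 (-1.33) and Itgam (-1.31), of which Cd163 and Mrc1, scavenger and mannose receptors of resident macrophages, passed in DESeq2 (adjusted p = 2.58e-04 and 0.031). Their part in the results for Nos2 and Cybb was not tested. Lyz2 and Aif1 had the same order of libraries as Cybb, and the other 15 markers did not. The summed level of the 17 markers was 1090 to 2327 CPM among the DSS mice, against 689 to 1598 CPM among the DSS+BV mice. Cybb relative to the geometric mean of these markers was 0.705, 0.726 and 0.874 in the DSS group and 1.17, 0.744 and 0.735 in the DSS+BV group, so its groups overlapped on that scale too.

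**Figure D3:**
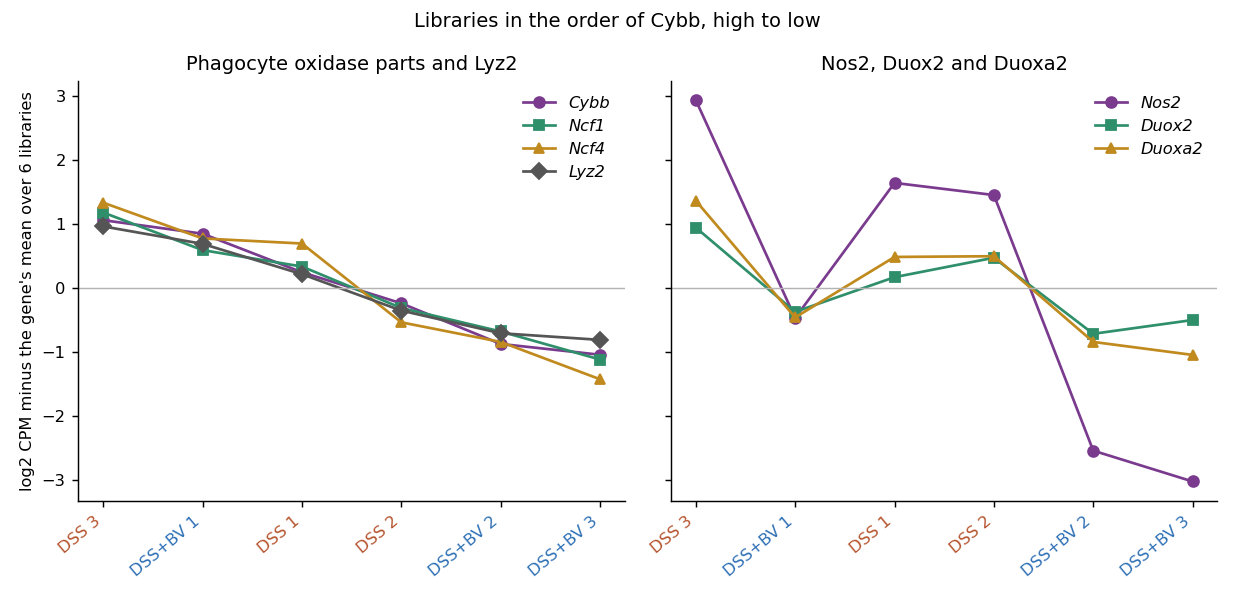
Log2 CPM minus the mean of the gene over the 6 libraries (vertical axis), with libraries ordered by the level of Cybb and lines joining the points of 1 gene. Cybb, Ncf1, Ncf4 and Lyz2 share 1 order with DSS+BV 1 second, while Nos2, Duox2 and Duoxa2 lie below their means in DSS+BV 1, DSS+BV 2 and DSS+BV 3.

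Nos2 was set against Cybb and the macrophage, epithelium and neutrophil markers library by library. For Nos2 over Cybb, DSS 1, 2 and 3 gave 3.54, 4.34 and 4.93, and DSS+BV 1, 2 and 3 gave 0.539, 0.421 and 0.341. DSS+BV 1, which had the second highest Cybb of all libraries, thus lay with its own group for Nos2. Relative to the geometric mean of the macrophage and monocyte markers, Nos2 was 2.5 to 4.31 in the DSS group and 0.25 to 0.63 in the DSS+BV group. Relative to the epithelium markers it was 0.149 to 0.473 and 0.005 to 0.0363. The groups did not overlap on the Cybb, macrophage or epithelium scale. On the epithelium scale this was fixed in advance, since Nos2 was lower and the geometric mean of those markers higher, each without overlap. The geometric mean of the neutrophil markers was 15.9, 10.2 and 19.7 CPM among the DSS mice, against 3.24, 2.63 and 1.87 CPM among the DSS+BV mice. Relative to these markers, Nos2 was higher in DSS+BV 1 than in DSS 1, so the groups overlapped on the neutrophil scale.

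The epithelium markers had the opposite direction to Duox2 and Duoxa2. Their geometric mean was 636, 863 and 756 CPM among the DSS mice, against 930, 1323 and 1150 CPM among the DSS+BV mice. All 15 markers had a log2 fold change above 0, and 6 had groups that did not overlap in the higher direction (6.36% of tested genes did). In edgeR 0 passed and 5 had an unadjusted p under 0.05, all higher (3.4% of tested genes were). DESeq2 passed 1, Car1, whose groups overlapped. It had 825, 1041 and 939 CPM among the DSS mice, against 924, 10453 and 8702 CPM among the DSS+BV mice. The part of these markers in the result was not tested. Duox2 relative to these markers was 0.757, 0.689 and 1.09 in the DSS group and 0.356, 0.197 and 0.263 in the DSS+BV group. For Duoxa2 the ratio was 0.145 to 0.301 and 0.0373 to 0.0692. Both ratios had to separate, since each gene was lower and the marker mean higher, without overlap. Noxo1, whose CPM overlapped, did not overlap relative to these markers, at 0.098 to 0.147 in the DSS group and 0.0594 to 0.0779 in the DSS+BV group. The log2 fold change of Noxo1 itself was -0.18, while the marker mean was higher without overlap.

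**Figure D4:**
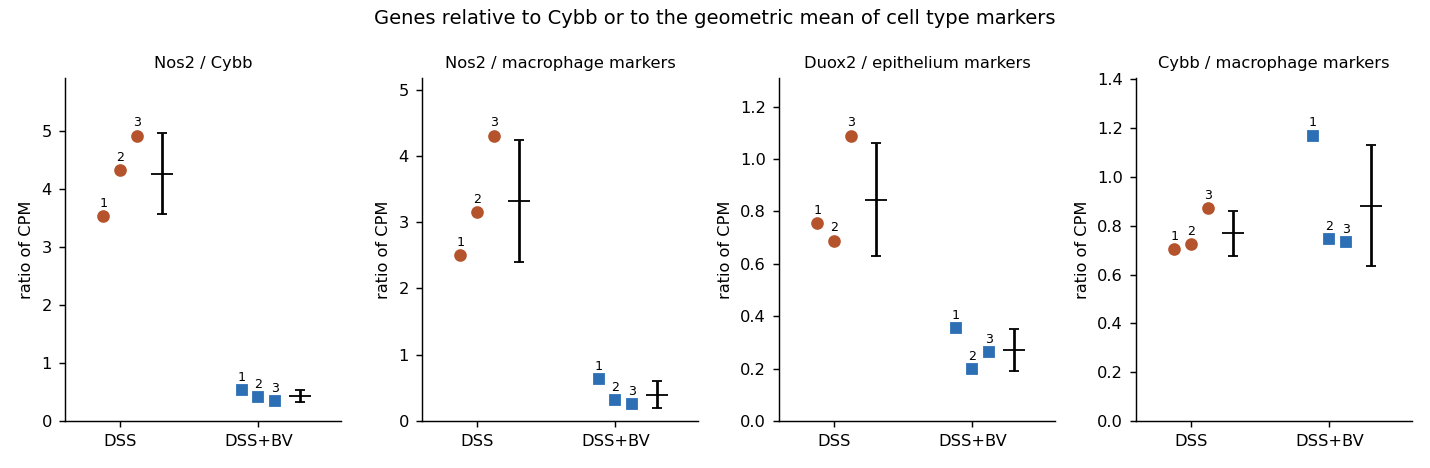
Ratios of CPM per library (vertical axes, from 0), with circles for DSS and squares for DSS+BV, numbered by replicate, and the mean and SD of each group as the black bar. Nos2 over Cybb is at or above 3.54 in DSS and at or below 0.539 in DSS+BV, while Cybb over macrophage and monocyte markers overlaps.

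Neutrophil markers also differed between the groups, and their part in the result was not tested. Of 16 such genes, 13 had groups that did not overlap in the lower direction, against 11.3% of all tested genes. Those that passed in edgeR as lower were 6, namely S100a8, S100a9, Cxcr2, Retnlg, Mmp8 and Mmp9, with edgeR adjusted p between 0.0127 and 0.0293. DESeq2 passed 14. In edgeR, 0 passed with the replicate number as a block and without DSS 1, DSS 3, DSS+BV 2 or DSS+BV 3, 1 without DSS 2 and 3 without DSS+BV 1. The summed level was 302 to 1181 CPM among the DSS mice, against 38.8 to 343 CPM among the DSS+BV mice, and Ly6g alone ran from 19.1 to 854 CPM with overlapping groups. Cybb, Ncf1 and Ncf4, which neutrophils also carry, had log2 fold changes between -0.88 and -0.54, and the median of the 15 tested neutrophil markers was -3.24. The 9 eosinophil markers summed to between 6.83 and 39.8 CPM over the 6 libraries. Il5ra, the receptor for interleukin 5, held 24, 1.62 and 29.6 CPM of that among the DSS mice, against 2.77, 1.02 and 0.695 CPM among the DSS+BV mice. Its groups overlapped, and its log2 fold change was -3.62 (edgeR adjusted p = 0.322, DESeq2 adjusted p = 0.00468). Epx, the eosinophil peroxidase, was at or below 0.19 CPM in every library. The B cell markers, which mark another cell type with Cybb, were high in DSS 1, DSS 3 and DSS+BV 1, the 3 libraries highest in Cybb, Ncf1 and Ncf4, and their part was not tested.

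The epithelial and the phagocyte oxidases were set against each other as the mean log2 CPM of Nox1, Noxo1, Duox2 and Duoxa2 minus that of Cybb, Ncf1 and Ncf4. DSS 1, 2 and 3 gave 1.92, 2.98 and 0.775, and DSS+BV 1, 2 and 3 gave 1.46, 2.65 and 2.93. The groups overlapped, and their means differed by 0.45 (DSS+BV minus DSS), which is less than the SD within the groups of 1.1 and 0.78. Without DSS 3, whose Nox1 was low and whose phagocyte parts were high, the difference between the groups was -0.10.

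Between genes, levels were compared per kilobase of the longest coding transcript. Per kilobase, Cyba, Duox2 and Duoxa2 held the first 3 places in DSS 1, DSS 2, DSS 3 and DSS+BV 1, and Noxo1 took the third place in DSS+BV 2 and DSS+BV 3. Their means in the DSS group were 89 ± 6.3, 104 ± 28.6 and 99.9 ± 37.4 CPM per kilobase (SD, n = 3 each), which do not differ beyond the spread. In the DSS+BV group Cyba was at 76 ± 8.42, Duox2 at 48.8 ± 5.8 and Duoxa2 at 32.8 ± 6.91 CPM per kilobase, and Noxo1, at 33.8 ± 6.88, was within the spread of Duoxa2. Nos2 ranked 4 or 5 in each DSS library and 9 in each DSS+BV library (50.3 ± 30.5 and 3.78 ± 3.71 CPM per kilobase). Cybb, Ncf1, Ncf4 and Nox1 had means between 5.42 and 11.6 CPM per kilobase in the DSS group, within each other's spread, and between 4.59 and 9.43 in the DSS+BV group.

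Across the 6 libraries, the log2 CPM of Nos2 followed those of Duoxa2 (Pearson r = 0.98) and Duox2 (r = 0.94), and Duox2 followed Duoxa2 (r = 0.97). For Cybb with Ncf1, Cybb with Ncf4 and Ncf1 with Ncf4 the values were 0.98, 0.97 and 0.99. These 6 points share the split between libraries described above, and no p is given. Nox1 had an r below 0 with each of the other 8. Over 11940 genes with a mean of at least 5 CPM, the 3 genes most like Duox2 in pattern were Cpt1c, Camk1 and Map1a (r from 0.997 to 0.999), and those most like Nos2 were Dnajc18, Ltbp3 and Rnf144a (r from 0.995 to 0.997). The 3 most like Cybb were Spn, Cd84 and Cnn2 (r from 0.996 to 0.999), of which Spn and Cd84 are leukocyte surface proteins, and those most like Nox1 were Arhgef38, Spg11 and Helz (r from 0.986 to 0.992). With 6 points and this many genes, such values are a description.

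Around these enzymes, the other subunits, the peroxidases, the arginine supply, the antioxidant enzymes and the inducing signals were read from lists. No gene of the 5 lists passed in edgeR. The counts at an unadjusted p under 0.05 below stand beside 9.12% lower and 3.4% higher over all tested genes. Of 19 other oxidase and synthase genes, 16 were tested, 3 had an unadjusted p under 0.05 in edgeR, all 3 lower, and the median log2 fold change was -0.30. Rac1, a GTPase that Nox1 and Cybb use, had a log2 fold change of -0.05. The related Rac2 was at -0.84 with overlapping groups (edgeR adjusted p = 0.614). Sh3pxd2b and Sh3pxd2a, the organisers of oxidases at invadopodia, had groups that did not overlap, at -0.54 and -0.39. Nox3 was at 0 in every library, and Duox1, the sister of Duox2, was at or below 0.989 CPM and was not tested.

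Nos1, the neuronal nitric oxide synthase, had 8.8, 30.2 and 58.5 CPM among the DSS mice, against 3.36, 6.05 and 9.8 CPM among the DSS+BV mice. The lowest DSS library lay just inside the DSS+BV range. Its log2 fold change was -2.34 (edgeR adjusted p = 0.329), and it passed in DESeq2 (adjusted p = 0.021). Nos3, the endothelial synthase, was at -0.46 (edgeR adjusted p = 0.497), and Noxa1, the activator of Nox1, was at 0.53 (edgeR adjusted p = 0.741). Nos3, Noxa1, Duox1 and Rac2 were chosen after their values were seen. So were Ifng, Il17a, Tnf, Il1b, Nod2, Nqo1, Epx, Aif1, Cd163, Mrc1, Itgam and Car1.

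Of the 5 heme peroxidases, which use hydrogen peroxide, 2 were tested, 1 was lower at an unadjusted p under 0.05 in edgeR, and none passed in edgeR or DESeq2. Lpo, lactoperoxidase, was at -0.63 with overlapping groups, and Pxdn, which crosslinks collagen IV, at -0.45 without overlap. Mpo, the peroxidase of neutrophil granules, whose transcript is made mainly in the bone marrow, was at or below 0.198 CPM. Of 13 genes of arginine and tetrahydrobiopterin supply, none passed in edgeR or DESeq2, 2 were lower at an unadjusted p under 0.05 in edgeR, and the median was -0.07. Ass1, which recycles citrulline to arginine for nitric oxide synthesis, was at -0.90 (edgeR adjusted p = 0.384) with overlapping groups, and the arginine carrier Slc7a2 at -0.71 (edgeR adjusted p = 0.394) without overlap. Arg2, an arginase that competes for arginine, was at 1.59 (edgeR adjusted p = 0.489).

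For the 31 antioxidant enzymes the median log2 fold change was 0.08. There were 6 lower and 2 higher at an unadjusted p under 0.05 in edgeR, and 3 passed in DESeq2, all 3 lower. These were Hmox1, Gpx3 and Sod3. Of the 2 higher, Nqo1 was at 1.68 with overlapping groups (edgeR adjusted p = 0.388, DESeq2 adjusted p = 0.128). Hmox1, heme oxygenase, had 37.6, 31.2 and 44.5 CPM among the DSS mice, against 14.5, 11.2 and 10.2 CPM among the DSS+BV mice, without overlap. Its log2 fold change was -1.66 (edgeR adjusted p = 0.0833, DESeq2 adjusted p = 3.23e-08). The secreted enzymes Gpx3 and Sod3 were at -1.19 and -1.37 (edgeR adjusted p = 0.263 and 0.286). Of the 4 most abundant in the list, Prdx1 was at 0.25, without overlap in the higher direction, and Gpx2, Prdx6 and Txn1 had overlapping groups.

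Of 24 inducing signals, 21 were tested, the median was -0.33, and 17 had a log2 fold change below 0. At an unadjusted p under 0.05 in edgeR, 6 were lower and 1 higher. The 1 higher was Nod2, at 0.69 without overlap (edgeR adjusted p = 0.329, DESeq2 adjusted p = 0.0853). Among cytokines that induce Nos2, Tnf was at -1.03 and Il1b at -1.59, both lower without overlap (edgeR adjusted p = 0.356 and 0.396, DESeq2 adjusted p = 0.169 and 0.174). Ifng and Il17a were at 0.24 CPM or below and 0.699 CPM or below and were not tested in edgeR. Il6, an inflammatory cytokine, was at -2.71 and the transcription factor Cebpb, which binds cytokine-responsive promoters, at -1.32, and both passed in DESeq2 (adjusted p = 0.00196 and 1.62e-05) and not in edgeR (adjusted p = 0.222 and 0.123). Irf1, an interferon-responsive factor that induces Nos2, was at -0.01, Ifngr2 at 0.04 and Stat3 at -0.36, all with overlapping groups. Tlr4, the receptor for lipopolysaccharide, was at -0.60 and Il1r1 at -0.51, both without overlap and neither passing in edgeR or DESeq2.

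**Figure D5:**
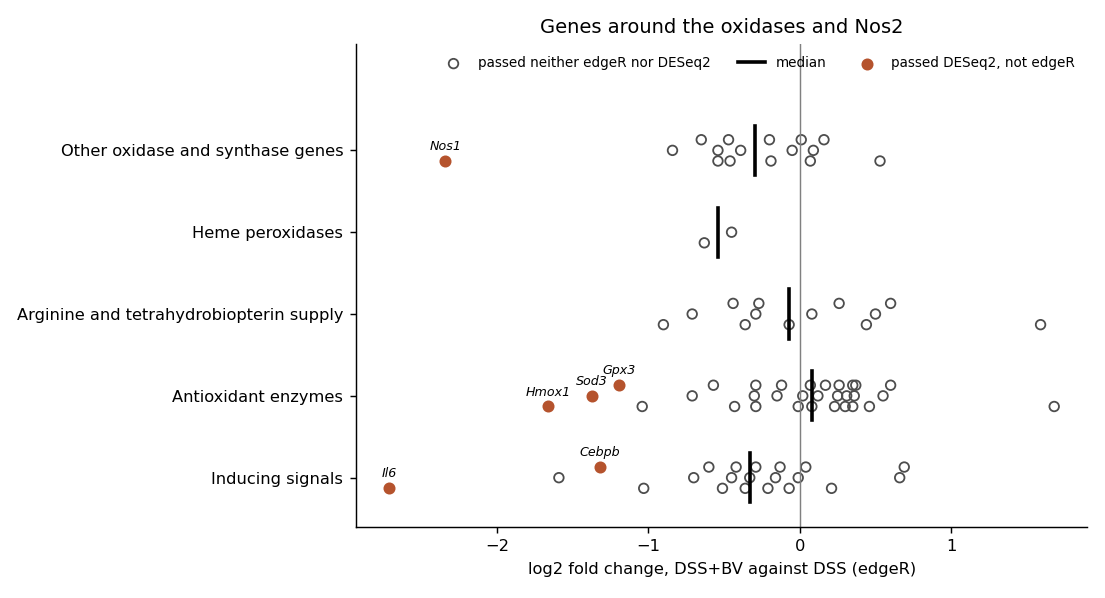
Log2 fold change of DSS+BV against DSS from edgeR (horizontal axis) for the tested genes of 5 lists, with the median of each list as a black bar. Filled points passed in DESeq2 and not in edgeR (Nos1, Hmox1, Gpx3, Sod3, Il6 and Cebpb, all below 0), and open points passed in neither.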

How the data were processed

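Colon RNA from 3 DSS and 3 DSS+BV mice was analysed as 1 table. The authors quantified reads with RSEM and deposited expected counts per gene, not scaled between libraries. The submitters' processing notes name HISAT2 2.1.0, Bowtie2 2.2.5, RSEM 1.2.8 and GRCm38.p6. The gene annotation and the strand setting are not given in the sources used here. Expected counts were rounded to whole numbers. Where a read fits several genes, RSEM divides it, and 1573 of 18477 genes held a deposited value that is not exactly whole (no tolerance).

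Genes were filtered with filterByExpr (minimum count 10, minimum total 15), scaled with TMM factors and tested with edgeR 4.0.16 in R 4.3.3 (quasi-likelihood test, Benjamini-Hochberg adjustment over 14579 genes). DESeq2 1.42.0, the tool of the study, was an alternative. Standard errors are the log2 fold change over the root of the F statistic. CPM uses TMM-scaled totals, and log2 CPM a prior count of 2. Geometric means of markers use tested genes and add 0.5 CPM. The scripts were tested on simulated data. P-values measure the spread between these mice.

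The members and lists were chosen with earlier results of these data known, and the sequence patterns after the sequences were seen. Named genes are all members; of each pathway list every gene that passed, up to 4 others of highest CPM and up to 4 of smallest p-value; of each marker list up to 3 of highest CPM and any at 0; and for Nox1, Duox2, Nos2 and Cybb the 3 genes of highest correlation. Lengths came from GENCODE M21, and promoter windows, from RefSeq on GRCm38.p6, were held for 7 of the 9 members. Replicates of a group differed by more than counting noise (chi-square per degree of freedom from 44.9 to 125). Alternatives were other scaling, filters, a robust fit, the replicate number as a block and each library left out. Counts on opposite strands at shared exons cannot be separated. Figures were drawn with matplotlib 3.10.9. One gene of the pathway lists that the naming rule selects is not reported here.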

Additional observations from a re-analysis of the deposited data

How the results depend on the processing

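With DESeq2 in place of edgeR, 3 members passed instead of 0, as did 1 other oxidase or synthase gene, 3 antioxidant enzymes and 2 inducing signals instead of 0 each, and over all genes 281 were lower and 46 higher instead of 13 and 0. DESeq2 was run on 17897 genes with its own filtering. On the 14579 genes that edgeR tested, an alternative chosen after seeing the data, it passed the same counts of members and list genes, and 282 genes lower and 41 higher. No member passed in any edgeR setting run: RLE factors, upper-quartile factors, no filter beyond 1 count, at least 1 CPM in 3 libraries, a robust fit, the replicate block, and each library left out. All 9 members kept the sign of their log2 fold change in these 14 alternatives. Over all genes, leaving out 1 library gave 0 to 3 genes lower and 0 to 4 genes higher in edgeR. The epithelial minus phagocyte difference reversed to -0.10 without DSS 3 and ran up to 1.0 with 1 library left out; it kept its sign with other scaling, with a prior count of 0.5 and with Cyba added to the phagocyte parts. With the replicate number as a block, 0 genes passed as lower instead of 13. Same-numbered libraries deviated from their group means with correlations of 0.267, 0.255 and -0.296, so the numbers were not read as pairs, and not every library correlated best with its own number. With 3 mice a group, an adjusted p that misses the threshold does not show that levels are equal, and Nox1 in DSS 3 rests on 29 counts.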
